A study of Mus musculus with 8 samples.

Results

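The TRBJ1 cluster and TRBC1 are one of the joining and constant gene sets of the T-cell receptor (TCR) beta chain in the mouse, and here they comprise the 6 J segments TRBJ1-1 to TRBJ1-6 and the constant gene TRBC1. Members were chosen by gene name: every assembled beta chain whose J gene carried a name beginning with TRBJ1- was taken, whatever its values. This gave 1179 of 2967 beta chains, found in 1159 of 2920 cells with a beta chain and in 601 of 1649 clonotypes with a beta chain. These 7 genes stood beside 7 of the downstream TRBJ2 and TRBC2 set, 14 genes in all. Single-cell TCR libraries came from brains of male B6 mice that all received a controlled cortical impact, a traumatic brain injury (TBI), and were collected 2 months later. Young mice (YTBI) were 13 to 15 weeks old and aged mice (ATBI) 80 to 82 weeks old at injury. The paper states that young mice came from Jackson Laboratory and aged mice from colonies of the National Institute on Aging. Within each age, mice were given 300 µg of an antibody to CD49d (aCD49d Ab), an integrin chain that lymphocytes use to adhere to vessel walls, or 300 µg of an isotype control antibody, first after injury and then every 2 weeks. No uninjured library was analysed here, so the injury is shared by all groups. CD45+ immune cells were sorted, and each library pooled 2 mice, with 1 library per group. There were therefore no replicates of a group, no difference between groups could be tested, and every interval given covers counting error only, as PCR reads and cells of a clone are not independent samples. A clonotype is a set of cells to which Cell Ranger gave the same receptor, and each cell took the J gene of its beta chain with most unique molecular identifiers (UMIs, which count captured mRNA molecules).

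The beta chain is assembled in the thymus from V, D, J and C genes. A D segment joins a J segment first, a V segment is then joined to that DJ unit, and splicing links the J segment to the constant gene behind it. The mouse locus carries a pair of D-J-C sets in tandem, so a rearrangement within TRBJ1 is normally transcribed with TRBC1. TRBD1 lies before both J clusters and can join either, while TRBD2 lies behind TRBJ1 and is normally joined to TRBJ2. The bases at the join, trimmed and added to at random, encode the third complementarity-determining region (CDR3), the part of the chain that meets the peptide.

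The libraries held 252, 562, 1004 and 1102 cells with a beta chain in YTBI_Isotype, YTBI_aCD49d, ATBI_Isotype and ATBI_aCD49d, so 1 cell was 0.397%, 0.178%, 0.0996% and 0.0907% of its library. The median number of UMIs behind the beta chain of a TRBJ1 cell was 12, 9.5, 6 and 10 in the same order, and 8 over all TRBJ1 cells against 9 over all TRBJ2 cells. By library the TRBJ2 medians were 10, 8, 7 and 11, below those of TRBJ1 in the young libraries and above them in the aged. An alpha chain was recovered beside the beta chain in 79.7%, 82.4%, 66.2% and 82.3% of TRBJ1 cells. ATBI_Isotype was thus the shallowest library per cell. Of 2985 barcodes, 1 occurred in more than 1 library, and 47 cells carried 2 beta chains. The labels name the cells only as brain immune cells, and the tables hold receptor chains alone, so no cell type marker could be set against that label.

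The 6 germline segments are shown because their coding ends set what each can add to a CDR3. They lie on the forward strand of chromosome 6 within a stretch of 1743 bases, 651 bases behind TRBD1 and 2611 bases before TRBC1, in the GRCm38 (mm10) assembly with GENCODE vM21 positions. Capitals mark the bases that fall in the CDR3, up to and including the conserved phenylalanine codon, and lower case marks the framework part behind it.
TRBJ1-1, chr6:41533864-41533911: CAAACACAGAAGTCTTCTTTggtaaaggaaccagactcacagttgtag
TRBJ1-2, chr6:41534001-41534048: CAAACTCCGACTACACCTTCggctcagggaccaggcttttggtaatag
TRBJ1-3, chr6:41534323-41534372: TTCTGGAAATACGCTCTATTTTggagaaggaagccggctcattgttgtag
TRBJ1-4, chr6:41534811-41534861: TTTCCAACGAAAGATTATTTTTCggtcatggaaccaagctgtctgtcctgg
TRBJ1-5, chr6:41535084-41535133: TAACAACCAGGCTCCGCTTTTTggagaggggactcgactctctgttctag
TRBJ1-6, chr6:41535554-41535606: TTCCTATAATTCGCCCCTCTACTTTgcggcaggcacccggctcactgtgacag
The segments can give 20, 20, 22, 23, 22 and 25 CDR3 bases in that order. The most frequent framework sequence of each segment in the tables matched the end of its genomic segment in all 6 cases, which checks the J names against the genome. A further annotated segment, TRBJ1-7, lies behind TRBJ1-6 and was called in 0 of 2920 cells, which allows a share of up to 0.103%. Whether the reference used for calling held it is not given in the sources used here.

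The recombinase cuts at a signal directly before each J segment that ends in a heptamer, CACTGTG as read on the J side. The 7 bases before each segment were compared with it on the forward strand. TRBJ1-1 carried it in full, as 1 of the 12 J segments called, and TRBJ1-2 to TRBJ1-6 matched it at 4, 5, 4, 6 and 5 of 7 bases. The 6 TRBJ2 segments matched at 5 or 6 bases. These letters are a description of the genome, and no relation to usage was tested.

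TRBC1, which encodes the constant domain, the membrane anchor and the short tail of the chain, was called on 1174 of the 1179 TRBJ1 chains. TRBC2 was called on 0 of them, which allows a share of up to 0.256%, and TRBC1 was called on 0 of the 1782 TRBJ2 chains with a constant gene. By library, TRBC1 was called on 72 of 72 TRBJ1 chains in YTBI_Isotype, 171 of 172 in YTBI_aCD49d, 592 of 596 in ATBI_Isotype and 339 of 339 in ATBI_aCD49d. J and C calls were therefore concordant in 100% of the chains with both, with a lower Clopper-Pearson 95% bound of 95% in the smallest library and 99.4% in ATBI_Isotype. The 5 TRBJ1 chains without a constant gene had 2 or 3 UMIs each, and 4 of them came from ATBI_Isotype. They used TRBJ1-4 in 3 cases, TRBJ1-2 in 1 and TRBJ1-1 in 1.

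The stretch in which the first exons of TRBC1 and TRBC2 differ is shown here. The first exons of TRBC1 and TRBC2 are 375 bases long in GRCm38 and were identical at 99.7% of positions. The single difference, C260A (TRBC1 base first, counted from the start of the exon), stands in capitals within 61 bases of each exon.
TRBC1, chr6:41538447-41538507: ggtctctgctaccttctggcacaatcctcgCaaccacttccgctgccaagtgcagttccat
TRBC2, chr6:41546959-41547019: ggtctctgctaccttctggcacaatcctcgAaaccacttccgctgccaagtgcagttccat
How far each assembled chain reached into the constant gene is not in the tables used here. Whether the constant gene was read independently of the J segment was not tested, so the concordance does not measure an error rate of the J calls.

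By cells, TRBJ1 was used far more in ATBI_Isotype than in the other libraries. In YTBI_Isotype 69 of 252 cells carried it (27.4%, 95% interval 22 to 33.3), 170 of 562 in YTBI_aCD49d (30.2%, 26.5 to 34.2), 592 of 1004 in ATBI_Isotype (59.0%, 55.8 to 62.0) and 328 of 1102 in ATBI_aCD49d (29.8%, 27.1 to 32.6). The interval of ATBI_Isotype overlapped none of the other 3, which overlapped each other. TRBJ1 chains took 31.2%, 32.9%, 56.6% and 29.3% of the beta chain UMIs in the same order.

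Counted by clonotypes, with each clonotype counted once whatever its size, the libraries differed less. TRBJ1 was used by 66 of 220 clonotypes in YTBI_Isotype (30%, 24.0 to 36.5), 145 of 453 in YTBI_aCD49d (32.0%, 27.7 to 36.5), 188 of 449 in ATBI_Isotype (41.9%, 37.3 to 46.6) and 202 of 527 in ATBI_aCD49d (38.3%, 34.2 to 42.6). Both aged libraries stood above both young libraries. ATBI_Isotype exceeded YTBI_Isotype by 11.9 percentage points (3.88 to 19.5) and ATBI_aCD49d exceeded YTBI_aCD49d by 6.32 points (0.176 to 12.4). The latter interval included 0 without cells whose clonotype the deposited tables mark as having evidence of an invariant T-cell receptor (1.42 points, -6.51 to 9.30), with only cells that had both chains (3.87 points, -2.88 to 10.5) and with every beta chain counted (6.0 points, -0.094 to 12.0), so this difference was not settled. Within an age, the isotype minus aCD49d difference in clonotype share was 3.54 points in aged mice (-2.76 to 9.84) and -2.01 points in young mice (-9.50 to 5.79), and both intervals included 0.

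The isotype minus aCD49d difference in the share of cells was 29.2 percentage points in aged mice (25 to 33.3) and -2.87 points in young mice (-9.59 to 4.18). Between ages it was 31.6 points for ATBI_Isotype minus YTBI_Isotype (24.9 to 37.8) and -0.49 points for ATBI_aCD49d minus YTBI_aCD49d (-5.29 to 4.21). These comparisons share libraries. In each of them the factor compared, treatment or age, cannot be told apart from the particular 2 mice of each pool. Age also cannot be told apart from the supplier of the mice. Without the clonotypes of 10 or more cells, a setting added after the values were seen, the aged difference in the share of cells was 3.72 points (-1.83 to 9.27) and the shares were 41.4% in ATBI_Isotype and 37.7% in ATBI_aCD49d. The aged minus young differences were then 14.0 points under isotype and 7.02 points under aCD49d. Without the marked cells, the latter was -11.4 points, so its direction depended on the cells counted.

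**Figure D1:**
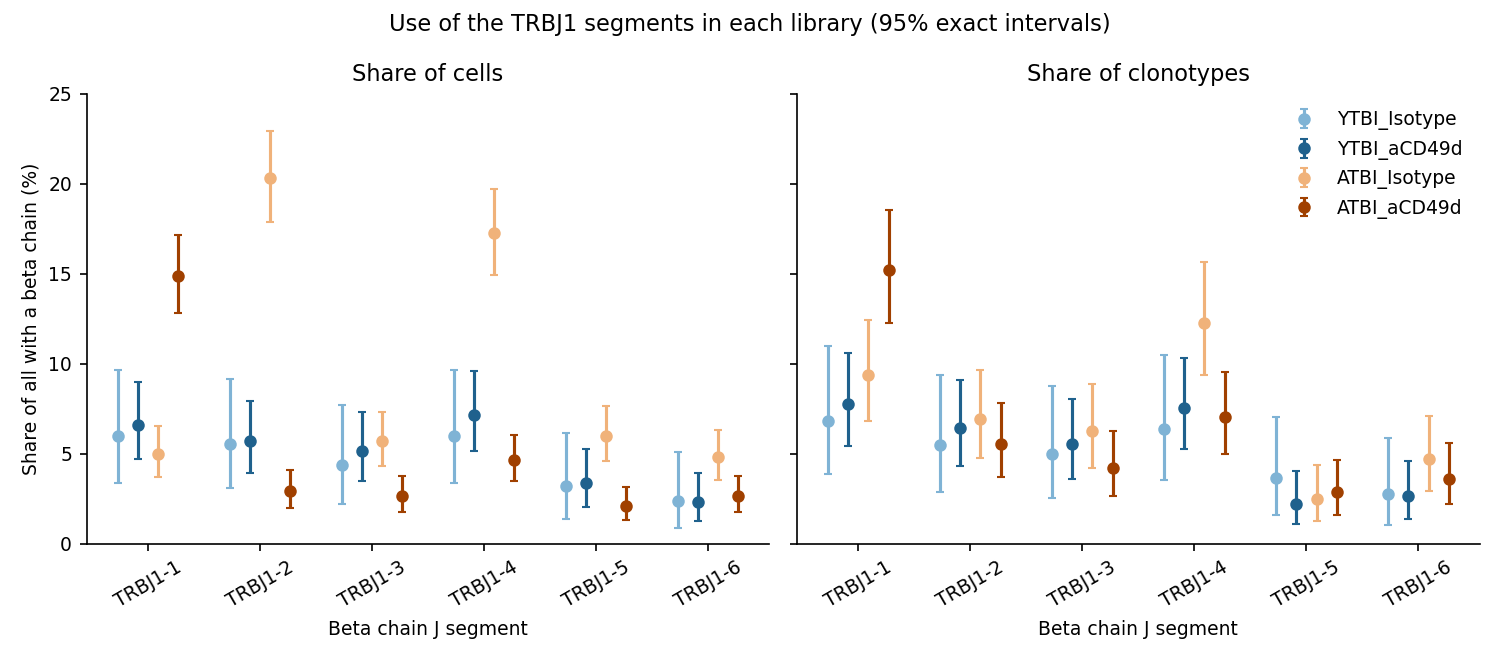
Share of cells (left) and of clonotypes (right) with a beta chain that used each TRBJ1 segment, in percent, for the 4 libraries; points are shares and bars are exact 95% intervals. By cells, TRBJ1-2 (20.3%) and TRBJ1-4 (17.2%) of ATBI_Isotype and TRBJ1-1 of ATBI_aCD49d (14.9%) stand apart, while by clonotypes only TRBJ1-1 of ATBI_aCD49d (15.2%) and TRBJ1-4 of ATBI_Isotype (12.2%) lie above 10%.

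The segments within the cluster were used unequally, in a similar order in each library. By clonotypes, TRBJ1-1, the segment nearest to TRBD1, accounted for 6.82%, 7.73%, 9.35% and 15.2% of all clonotypes in YTBI_Isotype, YTBI_aCD49d, ATBI_Isotype and ATBI_aCD49d. TRBJ1-4 accounted for 6.36%, 7.51%, 12.2% and 7.02%. These were the 2 leading segments of the cluster in every library, with TRBJ1-4 ahead in ATBI_Isotype and TRBJ1-1 ahead in the other 3.

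TRBJ1-2 followed with 5.45%, 6.4%, 6.90% and 5.50% of clonotypes, and TRBJ1-3 with 5.0%, 5.52%, 6.24% and 4.17%. TRBJ1-6 accounted for 2.73%, 2.65%, 4.68% and 3.61%, and TRBJ1-5 for 3.64%, 2.21%, 2.45% and 2.85%. TRBJ1-5 and TRBJ1-6 were the least used segments in all 4 libraries. Neighbours in this order had overlapping 95% intervals in every library, except for TRBJ1-1 and TRBJ1-4 in ATBI_aCD49d.

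By cells the order changed with the library. TRBJ1-2 was carried by 14 cells (5.56%) and 32 cells (5.69%) in the young libraries YTBI_Isotype and YTBI_aCD49d, and by 204 cells (20.3%) and 32 cells (2.90%) in the aged libraries ATBI_Isotype and ATBI_aCD49d. TRBJ1-4 was carried by 15 (5.95%), 40 (7.12%), 173 (17.2%) and 51 cells (4.63%). Both were high in ATBI_Isotype alone. TRBJ1-1 was carried by 15 (5.95%), 37 (6.58%), 50 (4.98%) and 164 cells (14.9%), and was high in ATBI_aCD49d alone.

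TRBJ1-3 was carried by 11 (4.37%), 29 (5.16%), 57 (5.68%) and 29 cells (2.63%). TRBJ1-5 was carried by 8 (3.17%), 19 (3.38%), 60 (5.98%) and 23 cells (2.09%), and TRBJ1-6 by 6 (2.38%), 13 (2.31%), 48 (4.78%) and 29 cells (2.63%). Among cells of the aged libraries, all 6 segments differed between ATBI_Isotype and ATBI_aCD49d beyond counting error, 5 being higher in ATBI_Isotype and TRBJ1-1 higher in ATBI_aCD49d, with an isotype minus aCD49d difference of -9.90 percentage points (-12.5 to -7.34). Over the 12 J segments of both clusters the share was 91.7% (11 of 12), so the count is near that of J segments in general. Without clonotypes of 10 or more cells, TRBJ1-5 turned direction, at -0.66 points (-2.71 to 1.45), and the intervals of TRBJ1-2 (0.78 points, -1.79 to 3.44) and TRBJ1-6 (1.06 points, -1.44 to 3.65) included 0, while those of TRBJ1-1 (-6.25 points), TRBJ1-3 (2.97 points) and TRBJ1-4 (5.82 points) did not. Without the marked cells, the interval of TRBJ1-4 included 0 (1.36 points, -1.31 to 4.13) and TRBJ1-1 was at -3.91 points (-6.64 to -1.13). In that setting TRBJ1-2, TRBJ1-3 and TRBJ1-6 rose to 29.0, 5.72 and 3.74 points, from 17.4, 3.05 and 2.15. TRBJ1-5 fell to 1.43 points, from 3.89. Without the largest TRBJ1 clonotype of each library TRBJ1-1 was at -5.61 points. TRBJ1-4 was then at 2.63 points, from 12.6.

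By clonotypes, 2 of the 6 differed, against 33.3% over all J segments (4 of 12): the difference was -5.83 points for TRBJ1-1 (-10.0 to -1.56) and 5.23 points for TRBJ1-4 (1.39 to 9.18). Without marked cells both intervals included 0, at -3.77 points (-9.04 to 1.52) and 1.61 points (-3.54 to 6.83). Between the young libraries, 0 of the 14 intervals for the cluster and its segments excluded 0. For single TRBJ1 segments this was 0 of 6 by cells and 0 of 6 by clonotypes. Over the J segments of both clusters it was 8.33% (1 of 12) by cells and by clonotypes alike. Between ages by cells, 2 of the 6 segments differed under isotype, against 50% of all J segments, and 4 of the 6 under aCD49d, against 58.3%. None of these 6 held under every setting. Under isotype, TRBJ1-2 went from 14.8 to 0.0097 points without clonotypes of 10 or more cells and TRBJ1-4 from 11.3 to 1.34 points without the largest clonotype. Under aCD49d, TRBJ1-2, TRBJ1-3 and TRBJ1-4 (-2.79, -2.53 and -2.49 points) had intervals that included 0 without clonotypes of 10 or more cells, and TRBJ1-1 went from 8.30 to 1.96 points without the marked cells. By clonotypes 1 of the 6 differed under each antibody, against 25% and 8.33%, and both intervals included 0 without the marked cells. These were TRBJ1-4 under isotype (5.89 points, then 4.48, -2.08 to 10.0) and TRBJ1-1 under aCD49d (7.45 points, then 4.64, -0.58 to 9.84). Of the 56 such intervals for the cluster and its segments over 4 pairs of libraries, 20 excluded 0, with no adjustment for their number. Single segments made up 16 of these 20. For the 12 J segments taken singly, without either cluster as a whole, the share was 35.4% (34 of 96).

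For each TRBJ1 segment, the J segment of either cluster with the closest usage was sought. Over the 4 libraries, the smallest sum of absolute differences in clonotype share was between TRBJ1-3 and TRBJ2-2, a segment of the downstream cluster, at 2.47 percentage points. TRBJ1-2 was closest to TRBJ1-3 (3.33 points), TRBJ1-5 and TRBJ1-6 to each other (4.34 points), TRBJ1-4 to TRBJ1-2 (8.88 points) and TRBJ1-1 to TRBJ2-3 (10.3 points).

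The cell counts followed a few large clonotypes. The junction, from the conserved cysteine codon to the conserved phenylalanine codon, is shown for the largest clonotype of each segment over all libraries. Capitals mark the bases that match the germline segment without interruption, counted back from the end.
TRBJ1-1, ATBI_aCD49d, TRBV19, 46 cells: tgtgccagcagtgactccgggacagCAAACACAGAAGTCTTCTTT
TRBJ1-2, ATBI_Isotype, TRBV14, 99 cells: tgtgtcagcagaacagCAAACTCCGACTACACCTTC
TRBJ1-3, ATBI_Isotype, TRBV14, 16 cells: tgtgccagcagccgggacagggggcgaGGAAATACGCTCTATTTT
TRBJ1-4, ATBI_Isotype, TRBV19, 109 cells: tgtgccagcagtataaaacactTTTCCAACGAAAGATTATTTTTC
TRBJ1-5, ATBI_Isotype, TRBV1, 44 cells: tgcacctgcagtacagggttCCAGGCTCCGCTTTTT
TRBJ1-6, ATBI_Isotype, TRBV12-2+TRBV13-2, 17 cells: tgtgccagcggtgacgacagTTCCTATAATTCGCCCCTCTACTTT
The label TRBV12-2+TRBV13-2 is the one the tables give. Of these 6 junctions, 4 keep every germline base of the segment, while TRBJ1-3 lost 4 bases and TRBJ1-5 lost 6.

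In ATBI_Isotype the 3 largest TRBJ1 clonotypes were also the 3 largest clonotypes of the library. The TRBV19 and TRBJ1-4 clonotype held 109 cells, or 10.6% of all cells with a receptor (8.82 to 12.7), and paired with TRAV7N-6 and TRAJ9. The next 2, of 99 cells (9.67%) and 73 cells (7.13%), both joined TRBV14 to TRBJ1-2 and both paired with TRAV12-1 and TRAJ22. Their beta junctions differed at 1 base, T5C, counted from the start of the junction and outside the J segment, with the larger clonotype first and the base in capitals.
99 cells: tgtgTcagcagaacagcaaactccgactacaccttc
73 cells: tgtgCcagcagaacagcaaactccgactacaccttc
Their alpha CDR3 was the same sequence, shown here as the part that joins the pair.
alpha CDR3 of both: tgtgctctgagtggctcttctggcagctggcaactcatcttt
Together they held 172 cells, or 16.8% of the library and 84.3% of its TRBJ1-2 cells. Whether they are 1 clone or 2 was not tested.

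ATBI_aCD49d had its largest TRBJ1 clonotypes on other segments. The TRBV19 and TRBJ1-1 clonotype held 46 cells (4.10%) and 4 clonotypes of the library were larger. The next 2 held 18 cells (1.60%, TRBV12-1 and TRBJ1-1) and 13 cells (1.16%, TRBV12-1 and TRBJ1-4). Their junctions lost 8 germline bases each.
18 cells, TRBJ1-1: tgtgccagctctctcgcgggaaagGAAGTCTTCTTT
13 cells, TRBJ1-4: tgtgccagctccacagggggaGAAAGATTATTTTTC

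The young libraries held no TRBJ1 clonotype above 10 cells. In YTBI_aCD49d the largest had 10 cells (1.73%, TRBV10 and TRBJ1-5), followed by 7 cells (1.21%, TRBV12-1 and TRBJ1-4) and 4 cells (0.693%, TRBV3 and TRBJ1-3). In YTBI_Isotype the largest had 3 cells (1.15%, TRBV12-1 and TRBJ1-2) and 2 cells (0.763%, TRBV26 and TRBJ1-4), and every other TRBJ1 clonotype was a single cell.

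**Figure D2:**
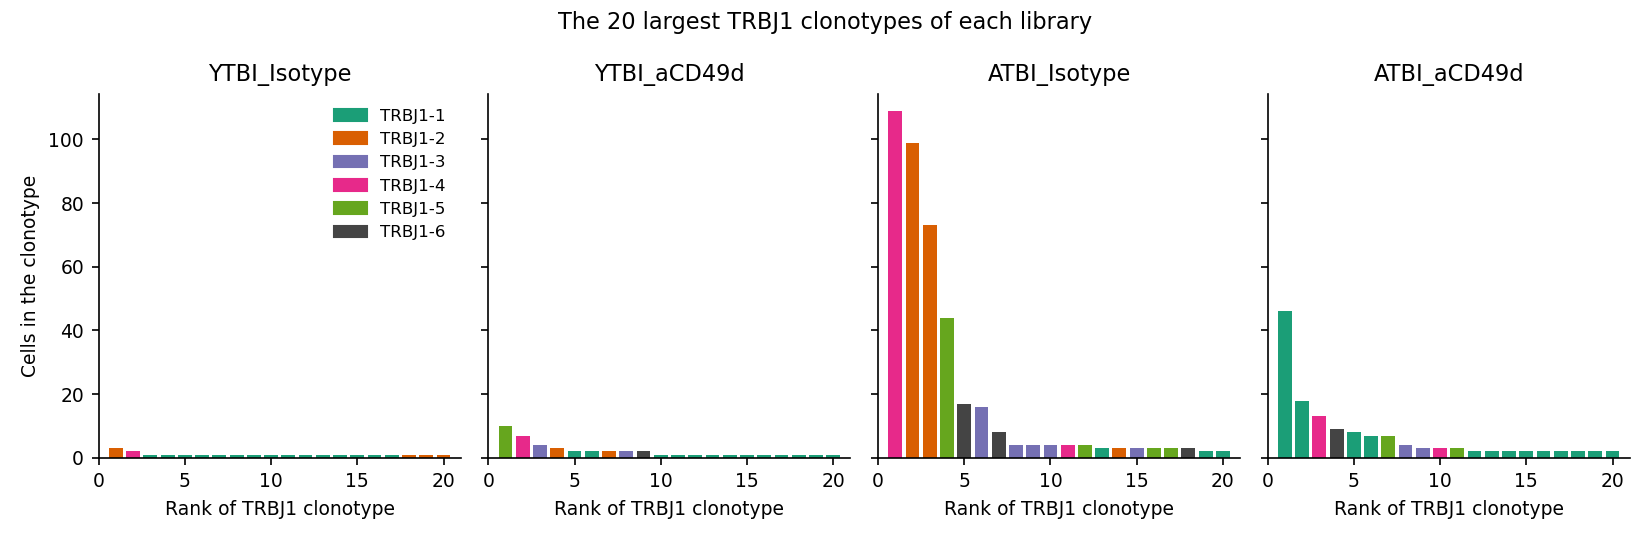
Number of cells in each of the 20 largest TRBJ1 clonotypes of the 4 libraries, ranked by size and coloured by J segment. In ATBI_Isotype 4 clonotypes reach 44 to 109 cells, in ATBI_aCD49d the largest has 46 cells, and in YTBI_Isotype the largest has 3.

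Clonotypes of 10 or more cells held 59.8% of the TRBJ1 cells in ATBI_Isotype (354 cells in 6 clonotypes), 23.2% in ATBI_aCD49d (76 cells in 3), 5.88% in YTBI_aCD49d (10 cells in 1) and none in YTBI_Isotype. For TRBJ2 the order of the aged libraries was the opposite, with 18.2% in ATBI_Isotype (75 cells in 3 clonotypes) and 46.1% in ATBI_aCD49d (357 cells in 8). The mean number of TRBJ1 cells per TRBJ1 clonotype was 1.05, 1.17, 3.15 and 1.62 in YTBI_Isotype, YTBI_aCD49d, ATBI_Isotype and ATBI_aCD49d.

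Segment by segment, the largest clonotype supplied 61.3% of the TRBJ1-4 cells of ATBI_Isotype, 73.3% of its TRBJ1-5 cells, 48.5% of its TRBJ1-2 cells, 35.4% of its TRBJ1-6 cells and 26.3% of its TRBJ1-3 cells. TRBJ1-1 was the exception in that library, since its largest clonotype held 3 of 50 cells (6.0%). In ATBI_aCD49d it was TRBJ1-1 that carried the large clonotypes, its largest supplying 28% of 164 cells, although its 80 clonotypes were also the most numerous of any TRBJ1 segment in any library. TRBJ1-5 in YTBI_aCD49d took 52.6% of its 19 cells from 1 clonotype.

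Expanded clonotypes, those with 2 or more cells in their library, were compared with single-cell clonotypes within each library, and no difference in TRBJ1 use was detectable at these numbers. In YTBI_Isotype, 2 of 18 expanded (11.1%, 1.38 to 34.7) and 64 of 202 single-cell clonotypes (31.7%) used TRBJ1. In YTBI_aCD49d the counts were 9 of 39 (23.1%, 11.1 to 39.3) and 136 of 414 (32.9%). In ATBI_Isotype they were 42 of 86 (48.8%, 37.9 to 59.9) and 146 of 363 (40.2%), and in ATBI_aCD49d 28 of 81 (34.6%, 24.3 to 46.0) and 174 of 446 (39.0%). The share was lower among expanded clonotypes in 3 libraries and higher in ATBI_Isotype, and each within-library interval of the difference included 0.

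The mean difference, expanded minus single-cell, was -6.54 percentage points ± 12.1 (SD over 4 libraries), with p = 0.375 in a two-sided exact sign-flip permutation test over libraries. With 4 libraries this test cannot give a p below 0.125. Without YTBI_Isotype, which had 18 expanded clonotypes, the mean was -1.87 points. The cluster and its 6 segments gave 28 within-library intervals, of which 1 excluded 0. TRBJ1-3 in ATBI_Isotype was used by 11.6% of expanded and 4.96% of single-cell clonotypes, a difference of 6.67 points (0.145 to 15.6). With clonotypes defined by the beta chain nucleotides it was 6.35 points (-0.069 to 15.1), and by the beta chain amino acids 6.31 points (-0.12 to 15.1). Its interval also included 0 with only cells of 1 beta chain and with expansion counted from 3 cells. Over all 12 J segments, without either cluster as a whole, the share of intervals that excluded 0 was 2.08% (1 of 48).

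**Figure D3:**
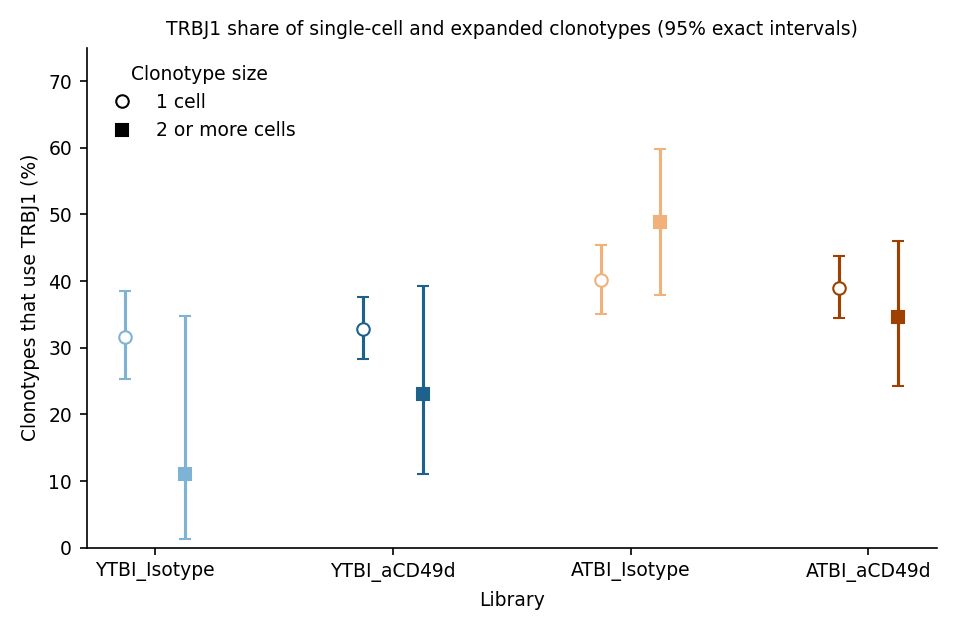
Share of clonotypes that used TRBJ1, in percent, among single-cell clonotypes (open circles) and clonotypes of 2 or more cells (filled squares) of each library, with exact 95% intervals. Expanded clonotypes lie below single-cell ones in 3 libraries and above in ATBI_Isotype (48.8% against 40.2%), with overlapping intervals in each.

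Of all TRBJ1 clonotypes, 81 of 601 were expanded (13.5%, 10.8 to 16.5), against 143 of 1048 TRBJ2 clonotypes (13.6%, 11.6 to 15.9). By library the TRBJ1 values were 3.03%, 6.21%, 22.3% and 13.9% in YTBI_Isotype, YTBI_aCD49d, ATBI_Isotype and ATBI_aCD49d, and the TRBJ2 values 10.4%, 9.74%, 16.9% and 16.3%. The number of cells in a library also sets how many clonotypes are seen at least 2 times, and its part in these values was not tested.

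D segment calls on TRBJ1 chains were nearly all TRBD1, the D gene before both clusters. A D segment was named on 169 of 1179 TRBJ1 chains (14.3%), and it was TRBD1 on 167 of them (98.8%, 95.8 to 99.9). On TRBJ2 chains, TRBD1 was named on 52.1%, 58.2%, 50% and 20.9% of those with a D call in YTBI_Isotype, YTBI_aCD49d, ATBI_Isotype and ATBI_aCD49d. The pooled share was 35.1% (201 of 573), and without ATBI_aCD49d it was 53.6% (133 of 248). The 2 TRBJ1 chains with TRBD2 were single cells, 1 joining TRBV13-1 to TRBJ1-1 in YTBI_Isotype with 15 UMIs and 1 joining TRBV13-2 to TRBJ1-4 in ATBI_aCD49d with 2 UMIs. A D segment is short and often trimmed, so these calls rest on few bases. By library, the share of TRBJ1 chains with a D call was 25%, 22.7%, 9.56% and 16.2%, each cell of a large clonotype counting again.

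The CDR3 length was compared between segments, counted in residues from cysteine to phenylalanine over clonotypes. TRBJ1-1 gave the shortest of the cluster, with library means of 13.7, 13.1, 13.3 and 13.3 in YTBI_Isotype, YTBI_aCD49d, ATBI_Isotype and ATBI_aCD49d. TRBJ1-2 followed with 13.8, 13.7, 13.7 and 13.8. TRBJ1-3 gave the longest of the cluster in 3 libraries, at 14.8, 14.3, 14.4 and 14.6, and TRBJ1-4 gave 14.3, 14.5, 14.2 and 14.3.

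TRBJ1-5 averaged 13.9, 13.7, 14.1 and 14.3 residues, and TRBJ1-6 averaged 14.2, 14.0, 14.2 and 14.2. The SD of single clonotypes around these means was 1.33 residues over all TRBJ1 clonotypes, and lengths ran from 10 to 19. Compared with the mean of TRBJ2 in the same library, TRBJ1-1 and TRBJ1-2 were shorter in 4 of 4 libraries, with mean differences of -0.71 ± 0.25 and -0.33 ± 0.079 residues (SD over libraries), and TRBJ1-3 and TRBJ1-4 were longer in 4 of 4, with 0.49 ± 0.20 and 0.26 ± 0.13 residues. Single TRBJ2 segments spanned these lengths. TRBJ2-7 averaged 13.6, 13.4, 13.3 and 13.6 residues, shorter than TRBJ1-2 in 4 of 4 libraries and than TRBJ1-1 in 2, and TRBJ2-2 averaged 14.6, 14.5, 14.8 and 14.9, longer than TRBJ1-4 in 4 of 4 and than TRBJ1-3 in 3. The cluster as a whole differed from TRBJ2 by -0.12 ± 0.15 residues, lower in 3 of 4 libraries, with p = 0.375 in the two-sided exact sign-flip permutation test, whose smallest p is 0.125.

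Loss of germline bases was compared between segments that start equally long. TRBJ1-1 and TRBJ1-2 both start with 20 CDR3 bases, and over all clonotypes TRBJ1-1 lost 2.77 bases on average and TRBJ1-2 lost 1.88. TRBJ1-3 and TRBJ1-5 both start with 22 and lost 1.74 and 2.55. TRBJ1-4 lost 2.76 of 23 bases. TRBJ1-6, the longest at 25 bases, lost 3.90 on average over all clonotypes. The order varied between libraries, since TRBJ1-4 lost 2.98 and TRBJ1-6 lost 2.90 in ATBI_Isotype, TRBJ1-3 lost more than TRBJ1-5 in YTBI_Isotype (2.45 against 1.88), and no test was made between segments.

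Segments without any loss made up 19.2% of TRBJ1-1 clonotypes, 32.7% of TRBJ1-2, 39.5% of TRBJ1-3, 30.7% of TRBJ1-4, 36.4% of TRBJ1-5 and 24.1% of TRBJ1-6, all libraries pooled. The pooled value of TRBJ1-1 hid a spread between libraries, from 38.1% in ATBI_Isotype, above TRBJ1-2 (32.3%), TRBJ1-4 (27.3%) and TRBJ1-6 (33.3%) there, to 17.5% in ATBI_aCD49d, 6.67% in YTBI_Isotype and 5.71% in YTBI_aCD49d. Over the cluster the share was 25.8%, 26.2%, 35.1% and 25.7% in YTBI_Isotype, YTBI_aCD49d, ATBI_Isotype and ATBI_aCD49d. A base that was added and happens to equal the germline base is counted as kept, which lowers the loss. A base within the segment that differs from the germline ends the match, so every base before it counts as lost, which raises the loss. TRBJ1-6 in YTBI_Isotype, at a mean loss of 7 bases, rested on 6 clonotypes.

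**Figure D4:**
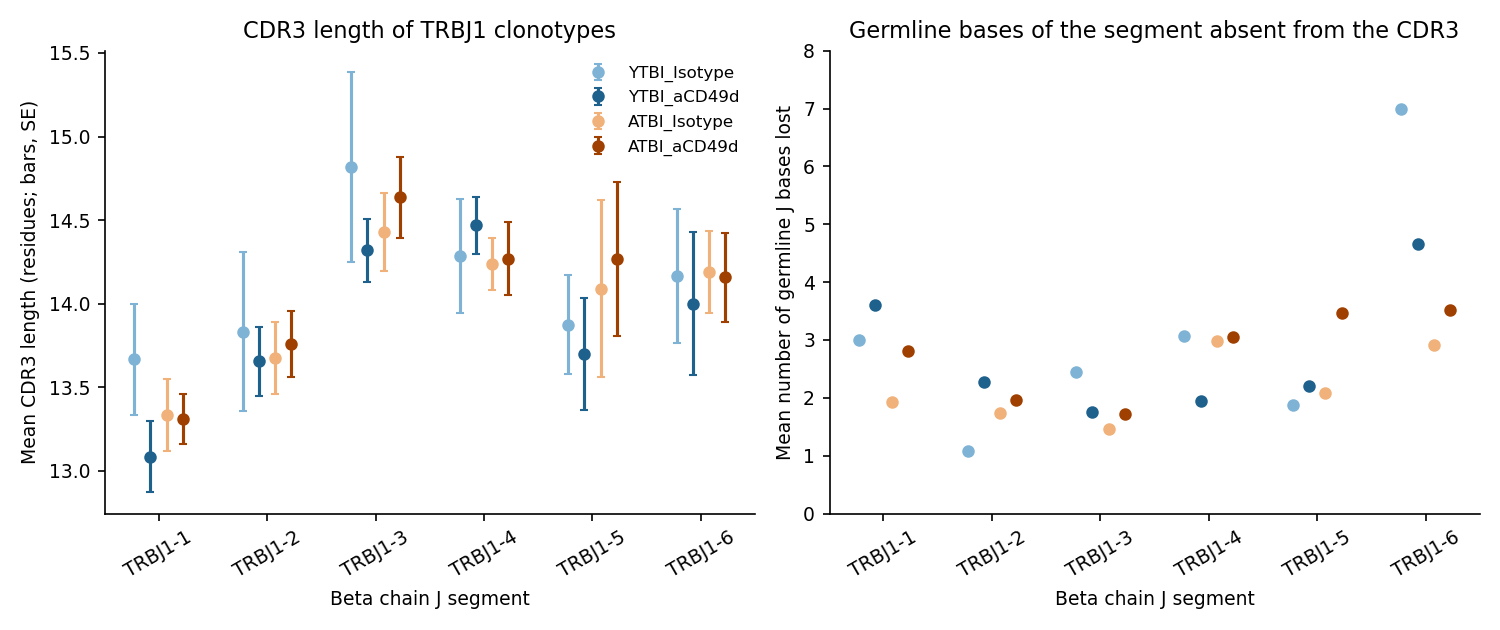
Mean CDR3 length in residues by TRBJ1 segment (left, bars are the standard error over clonotypes) and mean number of germline CDR3 bases of the segment that are absent from the junction (right), for the 4 libraries. TRBJ1-1 has the shortest CDR3 of the 6 in every library (13.1 to 13.7 residues), and TRBJ1-6 has a mean loss of 3.90 bases over all clonotypes but of 2.90 in ATBI_Isotype, where TRBJ1-4 lost 2.98.

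The CDR3 length of expanded and single-cell TRBJ1 clonotypes showed no common direction. The mean of expanded minus the mean of single-cell clonotypes was 0.42 residues in YTBI_Isotype on 2 expanded clonotypes, -0.32 in YTBI_aCD49d on 9, 0.30 in ATBI_Isotype on 42 and -0.11 in ATBI_aCD49d on 28, with both signs in each age.

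TRBJ1 was joined to all 22 V labels in the tables, which stand for 21 V genes, as TRBV12-2+TRBV13-2 is listed beside TRBV12-2 and TRBV13-2. TRBV12-2+TRBV13-2 gave most TRBJ1 clonotypes, 71 of its 208 (34.1%, 27.7 to 41.0), followed by TRBV3 with 57 of 125 (45.6%, 36.7 to 54.7) and TRBV13-1 with 44 of 126 (34.9%, 26.6 to 43.9). Among the 20 V labels with at least 20 clonotypes, the TRBJ1 share ran from 25.5% to 60.4% around a median of 35.6%. The intervals of 17 of the 20 held the overall share of 36.4%.

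The highest shares were those of TRBV26 (29 of 48, 60.4%, 45.3 to 74.2), TRBV13-2 (20 of 42, 47.6%, 32.0 to 63.6) and TRBV3. TRBV13-2 shares chains with the combined label, since the same beta and alpha junctions occur under both, and with both labels joined the share was 36.4% (91 of 250, 30.4 to 42.7). TRBV3 was at 53.3%, 52.9%, 62.5% and 25% in YTBI_Isotype, YTBI_aCD49d, ATBI_Isotype and ATBI_aCD49d, below the library's own share in the last. TRBV26 was at 37.5%, 66.7%, 60% and 75% in YTBI_Isotype, YTBI_aCD49d, ATBI_Isotype and ATBI_aCD49d, on 8, 12, 20 and 8 clonotypes, and so lay above the library's own TRBJ1 share in each. The lowest shares were those of TRBV16 (26 of 102, 25.5%, 17.4 to 35.1), TRBV5 (24 of 87, 27.6%, 18.5 to 38.2) and TRBV14 (15 of 53, 28.3%, 16.8 to 42.3). TRBV16 was at 42.9%, 25.9%, 25.9% and 17.6%, above the library's TRBJ1 share in YTBI_Isotype and below it in the other 3. TRBV14 was at 10%, 15.4%, 53.3% and 26.7%, on 10, 13, 15 and 15 clonotypes. It thus lay above the library's TRBJ1 share in ATBI_Isotype and below it elsewhere.

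TRBV14 is where clonotypes and cells parted most. Its 15 TRBJ1 clonotypes held 199 cells, 172 of them in the pair shown above and 15 in the TRBJ1-3 clonotype of ATBI_Isotype. TRBV19 had 39 TRBJ1 clonotypes and 200 cells, of which the TRBJ1-4 clonotype of ATBI_Isotype supplied 106 with a beta chain and the TRBJ1-1 clonotype of ATBI_aCD49d 46. By clonotypes, the most frequent single joins were TRBV12-2+TRBV13-2 with TRBJ1-2 (18 clonotypes, present in 4 of 4 libraries) and TRBV19 with TRBJ1-1 (15 clonotypes, also in 4 of 4).

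**Figure D5:**
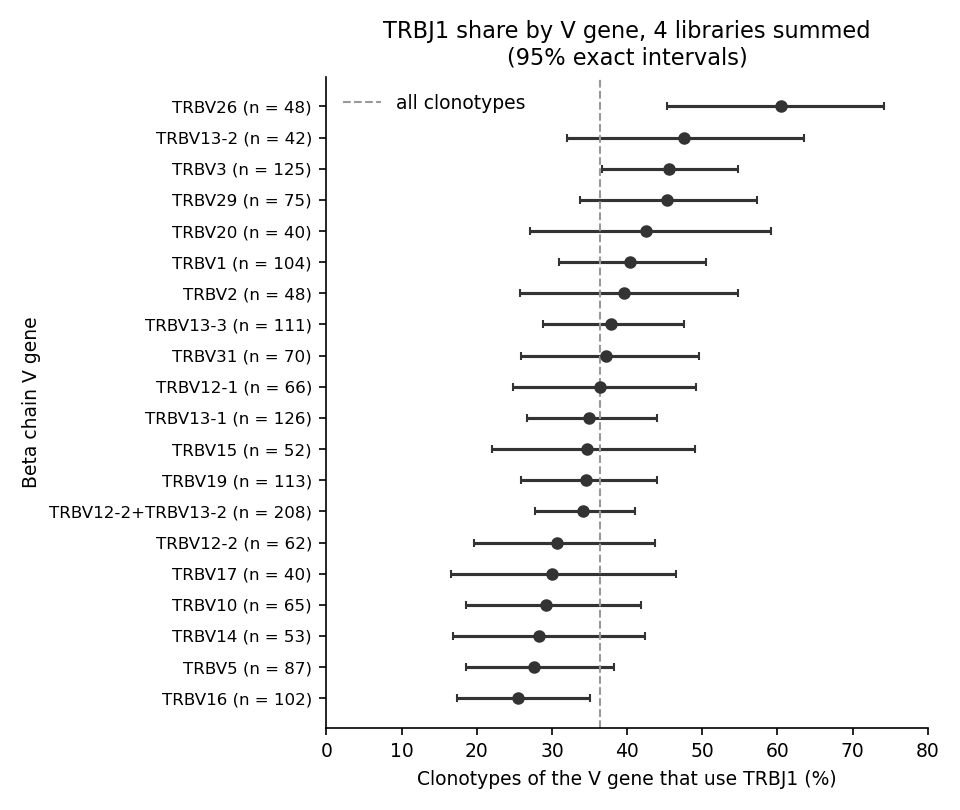
Share of the clonotypes of each V gene that used TRBJ1, in percent, for the 20 V labels with at least 20 clonotypes over the 4 libraries, with exact 95% intervals; the dashed line is the share over all clonotypes (36.4%). The interval of TRBV26 (45.3 to 74.2) and that of TRBV3 (36.7 to 54.7) lie above the line and that of TRBV16 (17.4 to 35.1) below it.

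TRBJ1-5 was the segment whose framework part varied. Of its 112 chains, 8 carried a T in place of the genomic base, C40T counted from the first base of the segment, and the other 104 matched the genome. The change leaves the encoded residue the same, as CTC and CTT are both leucine codons. It is shown in capitals in the segment as read from those chains.
TRBJ1-5 with C40T: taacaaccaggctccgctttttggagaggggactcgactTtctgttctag
The first 22 bases of that line are the genomic ones, as the chains were compared in the framework part. The 8 chains came from 6 clonotypes, counting here every clonotype with any TRBJ1-5 chain, a further beta chain of a cell included. These were 2 of 9 in YTBI_Isotype and 4 of 15 in ATBI_aCD49d, and each clonotype of a library used a different V gene. None of the 20 TRBJ1-5 chains of YTBI_aCD49d (11 clonotypes so counted) or the 60 of ATBI_Isotype (11 clonotypes) carried it. The chains with C40T were supported by 5 to 13 UMIs. No chain of the other 5 TRBJ1 segments or of the TRBJ2 segments differed from the genome in its framework part.

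TRBJ1 chains also occurred in cells with an alpha chain of TRAV11 and TRAJ18, the genes that the invariant natural killer T cell receptor uses. Of 112 such cells with a beta chain, 54 used TRBJ1 (48.2%, 38.7 to 57.9), 6 of 20 in YTBI_Isotype, 14 of 33 in YTBI_aCD49d, 16 of 21 in ATBI_Isotype and 18 of 38 in ATBI_aCD49d. Among them TRBJ1-1 was used by 18 cells, TRBJ1-2 by 12, TRBJ1-4 by 10, TRBJ1-3 by 5, TRBJ1-5 by 5 and TRBJ1-6 by 4. The TRBJ1 share of all cells with a beta chain was 39.7%, within the pooled interval above. In YTBI_Isotype, YTBI_aCD49d, ATBI_Isotype and ATBI_aCD49d the cells with these alpha genes stood at 30%, 42.4%, 76.2% and 47.4%. All cells stood at 27.4%, 30.2%, 59.0% and 29.8% in the same order. The value of all cells fell below the 95% interval in ATBI_aCD49d and within it in each other library. A link between TRBJ1 and these alpha genes was not tested.

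The deposited evidence columns for invariant receptors marked 492 of 1159 TRBJ1 cells (42.5%) and 533 of 1761 TRBJ2 cells (30.3%), and this contrast rested on ATBI_aCD49d. By library the TRBJ1 values were 39.1%, 31.8%, 40.2% and 52.7%, against TRBJ2 values of 39.3%, 36.2%, 36.9% and 21.6%. Without ATBI_aCD49d the pooled shares were 38.4% and 37.1%. For receptors of mucosal-associated invariant T (MAIT) cells, 325 of the 326 marked TRBJ1 cells were marked by the beta chain gene alone. For receptors of invariant natural killer T cells, this held for 146 of the 202 marked TRBJ1 cells. Without every marked cell the TRBJ1 share was 20.3% in ATBI_aCD49d, where 52.7% of TRBJ1 cells carried a mark, and the aged isotype minus aCD49d difference was 37.3 points.

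Receptors found in more than 1 library were sought among TRBJ1 clonotypes only, and almost none recurred. TRBJ2 clonotypes were not searched in this way, so whether this is particular to TRBJ1 was not tested. A single beta chain, joining TRBV12-1 to TRBJ1-2, had the same CDR3 residues in 2 libraries, with 3 cells in YTBI_Isotype and 1 in ATBI_Isotype. It was paired in both with TRAV10N and TRAJ22, and was encoded by different bases, shown with the germline J bases in capitals.
YTBI_Isotype, 3 cells: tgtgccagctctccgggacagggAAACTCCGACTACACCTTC
ATBI_Isotype, 1 cell: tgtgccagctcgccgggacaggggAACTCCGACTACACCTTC

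Cells with 2 beta chains were few, and 25 of the 47 held at least 1 TRBJ1 chain, 11 of them with both chains from TRBJ1 and 14 with 1 chain from each cluster. No doublet caller was run on these tables, and whether such cells were doublets was not tested.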

How the data were processed

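TCR libraries were made by the authors with the 10x Genomics 5' v2 immune profiling kit, and Cell Ranger 7.2.0 is named in the submitters' processing notes. In the deposited contig tables, each assembled chain had its gene calls, its CDR3, and whole-number counts of the UMIs and reads behind it. In the deposited clonotype tables, a clonotype had its cell count and that count divided by all cells of the library, a fraction. All chains listed were flagged productive and full-length. The authors further removed receptors of barcodes that gene expression had not placed among T cells. That step was not repeated, and the gene expression libraries were not analysed here.

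Each cell took its beta chain with most UMIs, and each clonotype the J gene of most of its cells. Libraries summed to 3207, 5583, 8070 and 13592 beta chain UMIs in YTBI_Isotype, YTBI_aCD49d, ATBI_Isotype and ATBI_aCD49d. Shares have Clopper-Pearson 95% intervals, differences Newcombe intervals built from them, and a count of 0 an upper limit of 3 counts of the total. Expanded minus single-cell share and CDR3 length were tested over libraries by a two-sided exact sign-flip permutation test. Functions were tested on simulated data. Named were all 7 members, the 3 TRBJ1 clonotypes with most cells in each library, the largest clonotype of each segment, the 3 V genes with most TRBJ1 clonotypes, and the 3 highest and lowest in TRBJ1 share. The TRBJ1-5 variant, the recurring receptor, the most frequent joins and the heptamers were chosen after their values were seen. No doublet caller was run, and cells with 1 beta chain alone were an alternative. Further alternatives were other clonotype definitions, other sets of cells and chains, leaving out large clonotypes and calling by TRBC1. As J and C calls were concordant on every chain with both, calling by TRBC1 left out only cells without a constant gene call. It was therefore no independent check. The members, rules and lists were chosen with earlier results of these data known. Germline bases came from GRCm38 with GENCODE vM21. Scripts ran in Python 3.11.15 with matplotlib 3.10.9 for plots, scipy 1.17.1 for intervals, and pandas 2.3.3 on numpy 2.4.6.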

Additional observations from a re-analysis of the deposited data

Results flagged for a closer look

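The isotype minus aCD49d difference had opposite directions in aged and young mice for TRBJ1 and 4 of its 6 segments, and with 1 library per group the difference between ages was not tested. Aged minus young, it was 32.1 percentage points for TRBJ1 by cells, 17.6 for TRBJ1-2, 13.8 for TRBJ1-4, 4.10 for TRBJ1-5 and 3.84 for TRBJ1-3. By clonotypes it was 5.55 points for TRBJ1, 6.37 for TRBJ1-4, 2.58 for TRBJ1-3, 2.35 for TRBJ1-2 and -1.83 for TRBJ1-5. TRBJ1-1 and TRBJ1-6 had the same direction in both ages, with -9.27 and 2.08 points by cells and -4.92 and 0.99 points by clonotypes. TRBJ1-6 by cells had opposite directions without clonotypes of 10 or more cells (aged 1.06, young -0.11 points). The same held with only cells of both chains (1.83, -0.58) and with only cells of 1 beta chain (2.25, -0.26). By clonotypes TRBJ1-6 was also opposite with only cells of both chains and with only cells of 1 beta chain. Every young interval behind these values included 0. By cells, the isotype minus aCD49d difference of TRBJ1-2 was above 0 in both ages with only cells of both chains (aged 16.9, young 0.33 points). The same held with at least 2 UMIs (17.5, 0.047). TRBJ1-5 was so with only cells of 1 beta chain (4.57, 0.086) and without the largest TRBJ1 clonotype (4.50, 1.58). By clonotypes TRBJ1-5 was so with only cells of both chains (0.15, 1.62) and without cells marked for invariant receptors (0.77, 1.21). Without clonotypes of 10 or more cells, a setting added after the values were seen, the values by cells were 6.99 points for TRBJ1, 1.36 for TRBJ1-2, 7.53 for TRBJ1-4, -2.11 for TRBJ1-5 and 4.16 for TRBJ1-3, and the aged difference of TRBJ1-5 turned to -0.66 points. Without cells marked for invariant receptors they were 41.6, 29.6, 1.65, 2.53 and 6.06 points in the same order. The values by clonotypes were then 9.76, 4.72, 1.71, -0.44 and 3.17 points in that order. With only cells of both chains, the value of TRBJ1 by clonotypes was 10.5 points. Large TRBJ1 clonotypes moved with the values by cells, since clonotypes of 10 or more cells held 59.8% of the TRBJ1 cells in ATBI_Isotype and 23.2% in ATBI_aCD49d.

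The TRBJ1 share of expanded minus single-cell clonotypes was 8.62 percentage points in ATBI_Isotype and below 0 in the other 3 libraries, and this difference in direction was not tested.

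The framework variant C40T of TRBJ1-5 appeared in a column that no comparison of usage reads, on 2 chains of YTBI_Isotype and 6 chains of ATBI_aCD49d. It was seen in both a young and an aged library, and in 1 library of each treatment.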

How the results depend on the processing

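No paired analysis was possible because a group consisted of 1 library. The TRBJ1 share of clonotypes and the TRBC1 call on TRBJ1 chains stayed within their main intervals under every alternative run. For the TRBC1 call this was fixed in advance, since it stood at 100% and the alternatives took the same chains or fewer. The clonotype difference of ATBI_aCD49d minus YTBI_aCD49d, whose interval excluded 0, did not exclude it without cells marked for invariant receptors (1.42 points), with only cells of both chains (3.87 points) and with every beta chain counted (6.0 points). The TRBJ1 share of cells moved with large clonotypes. Without the largest TRBJ1 clonotype it was 54.1% in ATBI_Isotype and 26.7% in ATBI_aCD49d. Without the largest clonotype of any cluster it was 54.1% and 32.8%, and the aged isotype minus aCD49d difference 21.4 points. Without cells marked for invariant receptors it was 20.3% in ATBI_aCD49d, the aged difference 37.3 points, and ATBI_aCD49d minus YTBI_aCD49d -11.4 points. Without clonotypes of 10 or more cells, added after the values were seen, it was 41.4% and 37.7%, the aged difference 3.72 points, the aged minus young difference 14.0 points under isotype and 7.02 points under aCD49d. Joining clonotypes of near-identical receptors, also added after the values were seen, moved no value of the cluster as a whole out of its main interval. The cause of these moves beyond the cells removed was not tested. Of the shares of single segments under alternatives, 23 moved and 529 did not. Of the 16 differences between libraries in a single segment whose interval excluded 0, 8 lost this without marked cells, 6 without clonotypes of 10 or more cells, where 1 more turned direction, 2 without the largest TRBJ1 clonotype, 2 without the largest clonotype and 1 with every beta chain counted. These counts by segment were added after the values were seen. With each library left out in turn, expanded minus single-cell share ran from -11.6 (without ATBI_Isotype) to -1.87 points (without YTBI_Isotype) and the CDR3 length difference from -0.17 (without YTBI_Isotype) to -0.059 residues (without ATBI_aCD49d). Over all alternatives both stayed below 0. With 220 to 527 clonotypes per library, differences of a few points cannot be told from counting error, and with 1 pool of 2 mice per group the spread between mice is unknown.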
